A study of Homo sapiens with 12 samples.

Results

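The loci of 9 pluripotency genes were examined in peak lists of open chromatin from 2 human cell lines. The genes were POU5F1, NANOG, SOX2, SALL4, PRDM14, ZFP42, LIN28B, DPPA4 and L1TD1, and a locus was the gene with 50 kb on either side. The members were all peaks, on build hg19, that touched one of these windows. They numbered 70 peaks, 33 in H7 and 37 in ARPE-19. Peaks that overlapped by at least 1 base across libraries were merged into regions, and 46 of the 84664 regions of the whole data set lay in the 9 windows.

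The data came from ATAC-seq, in which the Tn5 transposase cuts and tags open chromatin and a peak is a stretch where the tagged reads pile up over the background. One group was H7, a human embryonic stem cell line, and the other was ARPE-19, a line of retinal pigment epithelial cells; neither had a treatment or an engineered change in the labels. Each line had 3 libraries of 500000 cells, and each library had its own peak list. The labels do not say whether the 3 libraries came from separate cultures, so each p-value covers the variation of these libraries, which may be technical. The 4C samples of the study were not analysed here.

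Pluripotent cells keep their identity through a small circuit of transcription factors that bind each other's genes. OCT4 (the product of POU5F1), SOX2 and NANOG form its core, and OCT4 and SOX2 often bind side by side at a joint element. SALL4, PRDM14 and ZFP42 are zinc finger proteins around that core, LIN28B and L1TD1 bind RNA, and DPPA4 is a nuclear protein that acts together with DPPA2. A differentiated epithelial line does not depend on this circuit.

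Promoters are shown for the 3 genes whose start site had a called peak in more than 1 library of a line, in each case H7. Some of these peaks reach beyond the stretch shown. Each runs from 250 bases before to 50 bases after the start in RefSeq on build GRCh38.p14, at chr12:7789152-7789451 on the plus strand for NANOG, chr4:187995521-187995820 on the plus strand for ZFP42 and chr3:109337497-109337796 on the minus strand for DPPA4. The build differs from that of the peaks, and whether the starts coincide exactly was not tested. Capitals mark matches, on either strand, to the octamer ATGCAAAT that OCT4 binds and its looser form ATGCNAAT, to ACAAAG as a first form of the SOX core, with CATTGT as the other form, and to the joint OCT4 and SOX2 element. The GC box GGGCGG, the box named for its letters CCAAT and the TATA box with the letters TATAAA were searched as well.
NANOG: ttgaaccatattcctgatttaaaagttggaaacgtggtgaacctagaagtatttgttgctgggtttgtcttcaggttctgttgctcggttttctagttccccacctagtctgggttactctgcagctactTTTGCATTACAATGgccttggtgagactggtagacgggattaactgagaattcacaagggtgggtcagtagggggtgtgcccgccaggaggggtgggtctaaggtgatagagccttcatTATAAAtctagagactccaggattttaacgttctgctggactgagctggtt
ZFP42: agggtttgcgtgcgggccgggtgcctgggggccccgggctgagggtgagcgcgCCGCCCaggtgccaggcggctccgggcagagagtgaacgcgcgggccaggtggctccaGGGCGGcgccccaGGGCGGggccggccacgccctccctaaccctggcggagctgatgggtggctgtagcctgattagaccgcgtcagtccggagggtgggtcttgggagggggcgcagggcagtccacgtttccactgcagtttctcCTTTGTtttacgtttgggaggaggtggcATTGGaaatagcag
DPPA4: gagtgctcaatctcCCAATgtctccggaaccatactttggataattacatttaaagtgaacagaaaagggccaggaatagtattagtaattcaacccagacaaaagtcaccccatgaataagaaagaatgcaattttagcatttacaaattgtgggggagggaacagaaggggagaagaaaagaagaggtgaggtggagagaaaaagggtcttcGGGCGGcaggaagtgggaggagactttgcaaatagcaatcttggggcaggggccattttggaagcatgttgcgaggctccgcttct

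The NANOG promoter held the joint OCT4 and SOX2 element on the minus strand, from 120 to 109 bases before the start. Only 11 of the 35116 promoters of the RefSeq table, 0.0313%, held this element. The match overlaps one to the other form of the SOX core, which 10.8% of promoters held, and a TATA box match lay further on, across the start (11.5% of promoters). Neither octamer form was matched in these 3 promoters (1.77% of promoters held the strict form and 2.97% the looser). The ZFP42 promoter was rich in G and C, at 69.3% against a median of 58.7% over the table, and had 3 matches to the GC box, which 45% of promoters held. It also had a match to the first SOX core (16.1% of promoters) and a CCAAT match (34.6%), both after the start. The DPPA4 promoter had 45.3% G and C, with 1 GC box and 1 CCAAT match. A match is a stretch of letters and not evidence of binding. The table held 6 of the 9 genes; POU5F1, SALL4 and PRDM14 were not matched.

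Few peaks were called near these genes in either line. The 9 windows held 8, 14 and 11 peaks in H7 replicates 1, 2 and 3, and 12, 11 and 14 in ARPE-19 replicates 1, 2 and 3. The means were 11 ± 3 in H7 and 12.3 ± 1.53 in ARPE-19 (SD, n = 3), a log2 difference of H7 from ARPE-19 of -0.17. The libraries of the lines overlapped. DPPA4 held 10 of the 33 H7 peaks, and without it the means were 7.67 ± 2.08 in H7 and 12.3 ± 1.53 in ARPE-19 (SD, n = 3), a log2 difference of -0.69. The lists differed greatly in length, however, with 15351, 13707 and 8622 peaks in H7 and 44456, 40110 and 48460 in ARPE-19.

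Seen as a share of its own list, each H7 library had more of its peaks near the 9 genes than any ARPE-19 library. The shares were 0.0521%, 0.102% and 0.128% in H7 replicates 1, 2 and 3. In ARPE-19 they were 0.0270%, 0.0274% and 0.0289%. The windows made up 0.0402% of the autosomal span of the peaks, so the H7 shares stood above the share of length and the ARPE-19 shares below it. The list shares count peaks on every chromosome and the span covers only the autosomes, so the measures are not exactly alike. The H7 mean was 3.38-fold that of ARPE-19 (0.0939% ± 0.0384 against 0.0278% ± 0.00099, SD, n = 3). The counts behind these shares overlapped, and the mean ARPE-19 list was 3.53 times as long as the mean H7 list. The ratio of shares therefore follows largely from list length. Within H7, too, the share was higher the shorter the list. Without DPPA4 the shares were 0.0391%, 0.0730% and 0.0812% in H7 replicates 1, 2 and 3, still above each ARPE-19 library. The ratio of the means was then 2.32. The share of length without the DPPA4 window was not computed, so these shares are not set against it. These shares are sums over genes that were chosen with earlier results known, and no test was made of them.

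**Figure D1:**
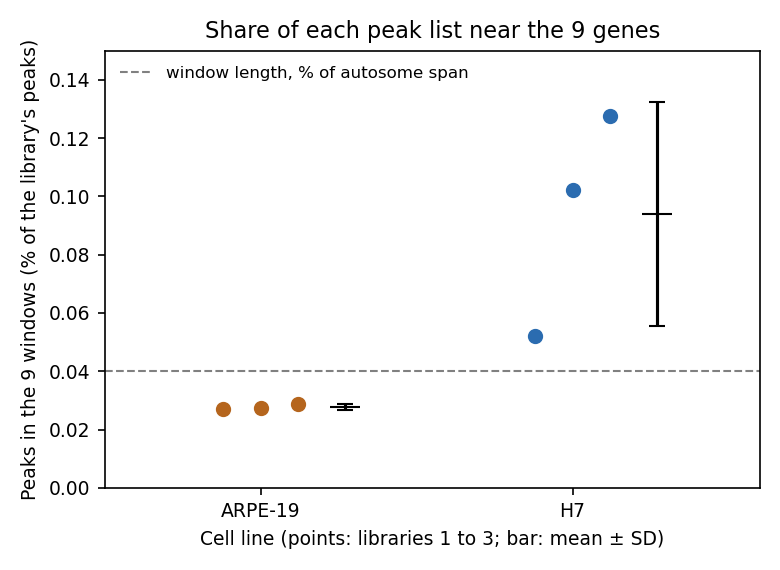
Peaks in the 9 windows as a percent of all peaks of a library (y axis) by cell line (x axis); points are libraries, the bar is the mean ± SD, and the dashed line is the length of the windows as a percent of the autosomal span. The 3 H7 libraries sit between 0.0521% and 0.128%, above the line, and the 3 ARPE-19 libraries between 0.0270% and 0.0289%, below it.

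The signal behind these calls was low. The number of reads at each summit was recovered from the deposited fold and p. The 33 H7 peaks had 6 to 28 summit reads with a median of 9, and the 37 ARPE-19 peaks had 4 to 18, also with a median of 9. Over the whole lists the medians were 9, 9 and 10 in H7 replicates 1, 2 and 3. They were 11, 10 and 11 in ARPE-19 replicates 1, 2 and 3, so few reads were usual in these lists. The fewest reads that could be called over the genome-wide background were 5, 5 and 6 in H7 replicates 1, 2 and 3 and 4 in each ARPE-19 library, so many of these peaks stood close to the limit. A missing call means that the site was not detectable at this depth, not that it was closed. In cells measured in bulk, a site open in fewer cells and a site opened less in each cell cannot be told apart. Within their own lists, ranked by -log10 q, the H7 peaks stood at a median percentile of 35.3 and the ARPE-19 peaks at 32.8.

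Replicates shared few of these regions. Of the 46 regions, 34 (73.9%) were called in 1 library, where the share over all merged regions was 46.4%. Of these, 16 were called in an H7 library (34.8% of the 46, against 17.1% of all), with 6 to 11 summit reads. The other 18 were called in an ARPE-19 library (39.1% of the 46, against the rest of the 46.4% of all), with 4 to 11. Both shares stood above those over all regions. Only 3 regions were H7-only, meaning called in every H7 library and in none of ARPE-19. These 3 are 6.52% of the 46, and 1.82% of all merged regions were H7-only. Without H7 replicate 1 there were 6, since 2 of 2 calls were then needed and an upstream DPPA4 region joined by that library splits. Another 5 regions (10.9%) were ARPE-19-only by the reverse rule, against 26% of all merged regions. With calls in 2 or 3 libraries of one line and 0 of the other there were 5 regions for H7 (10.9%, against 5.18% of all) and 6 for ARPE-19 (13.0%, against 39.9% of all). Only 1 region had peaks in both lines (2.17%, against 8.51% of all). A region of 3 against 3 libraries cannot have an exact permutation p below 0.1, so no single region could pass a threshold of 0.05.

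Start sites were called in the stem cells and not in the epithelial line. A start site counted as open where a peak lay within 500 bases of the first base of the gene. Only 1 start per gene was used. Others, such as the upstream LIN28B promoter of the RefSeq table, were not counted. H7 replicate 2 had a peak with 8 summit reads 16.5 kb before the LIN28B start used here. Whether that peak lies at the upstream promoter was not tested. In H7 this held for 4 of the 9 genes in at least 1 library (NANOG, SALL4, ZFP42 and DPPA4) and for 3 of them in 2 of 3 libraries. In ARPE-19 it held for 0 of 9 genes in every library. No gene had it in 3 of 3 H7 libraries, and without H7 replicate 2 or 3, where both remaining libraries must have the peak, the count of 3 genes fell to 0. Of the 33 H7 peaks, 7 lay at a start site, 4 elsewhere in a gene, 10 upstream and 12 downstream. Of the 37 ARPE-19 peaks, 0 lay at a start site, 7 in a gene, 8 upstream and 22 downstream. The starts of POU5F1 and SOX2 were not called in any library. The share of all start sites with a peak in each line was not analysed here, so these counts have no background to be read against, say nothing particular of these genes and do not settle the H7 label. No test was made of the difference between the lines.

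**Figure D2:**
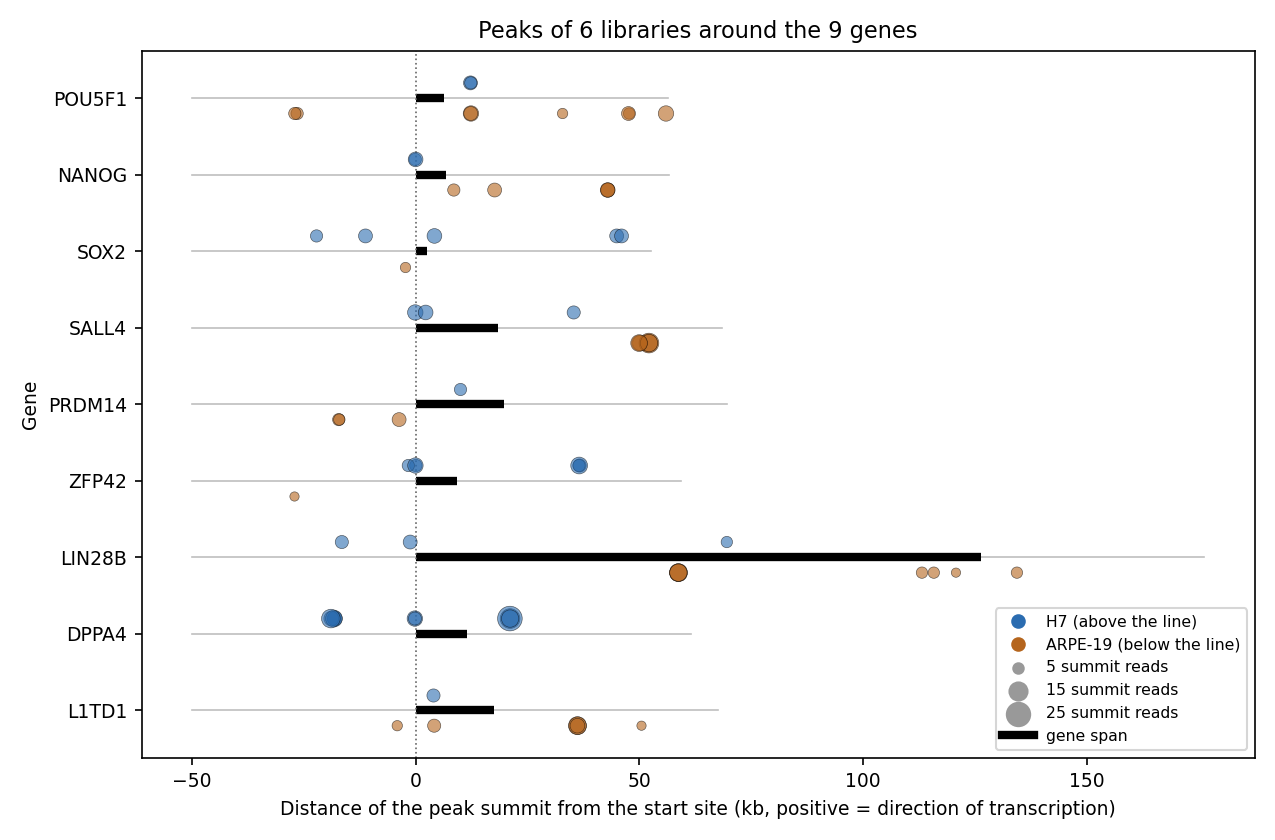
Distance of each peak summit from the start site of the gene in kb, with positive values in the direction of transcription (x axis), for the 9 genes (y axis); black bars are gene spans, grey lines the windows, circles above the line H7 peaks and circles below it ARPE-19 peaks, with area in proportion to summit reads. H7 circles stand on the start of NANOG, SALL4, ZFP42 and DPPA4, and no ARPE-19 circle does.

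Among the 3 core factors, NANOG was the one with a peak at its start. NANOG is a homeodomain protein, with its gene on chromosome 12 from 7941992 to 7948657. H7 replicate 2 had a peak from 7941781 to 7941950 with 7 summit reads, and H7 replicate 3 one from 7941793 to 7941981 with 10. The summits lay 134 and 48 bases before the start, within the reach of the promoter sequence shown for this gene. The authors' fold enrichments were 4.64 and 5.94, and the peaks stood at the 28.8th and 58.1st percentiles of their lists. H7 replicate 1 and all 3 ARPE-19 libraries had no peak there, and the nearest ARPE-19 peak was 8.45 kb away.

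The remaining NANOG window held ARPE-19 peaks only. A region from 7984803 to 7985062, 42.9 kb after the start, had a peak in each ARPE-19 library, with 9, 9 and 10 summit reads in replicates 1, 2 and 3. In the gene table SLC2A14, a sugar transporter gene, is the next gene on that side, and whether the region belongs to it was not analysed here. The peak counts were 0, 1 and 1 in H7 and 2, 2 and 1 in ARPE-19, which overlapped (two-sided exact permutation test over the libraries, p = 0.3).

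POU5F1, which encodes the POU-domain factor OCT4, had no peak at its start in any library. Its gene lies on chromosome 6 from 31132114 to 31138451, and the nearest peaks were 12.0 kb away in ARPE-19 and 12.1 kb away in H7. Both belong to the one region called in both lines, from 31125960 to 31126426, downstream of the gene. This region had 9 and 7 summit reads in H7 replicates 1 and 2 and 11 and 9 in ARPE-19 replicates 1 and 3. In the gene table TCF19 is the next gene on that side, and whether the region belongs to TCF19 was not analysed here. Another region, from 31090665 to 31090986, was called in ARPE-19 replicates 2 and 3 with 6 and 9 reads. The window had 1, 1 and 0 peaks in H7 and 3, 1 and 4 in ARPE-19 (exact permutation p = 0.3), so the lower count in the stem cells was within the spread of the libraries.

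SOX2, an HMG-box factor and partner of OCT4, had scattered H7 peaks that no other library repeated. The gene lies on chromosome 3 from 181429712 to 181432223. H7 had 2, 2 and 1 peaks in replicates 1, 2 and 3, and ARPE-19 had 0, 1 and 0 (exact permutation p = 0.2). The 5 H7 peaks had 7 to 10 summit reads. The highest by -log10 q lay in replicate 2 from 181474545 to 181474758, 44.9 kb after the start, with 9 reads. A peak in replicate 1 from 181433643 to 181433922, 4.16 kb after the start and so just past the gene, had 10. The lone ARPE-19 peak, from 181427325 to 181427463, had 5. None of the 5 H7 peaks overlapped another, and the start itself was not called in any library.

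The zinc finger factors differed among themselves. ZFP42, known as REX1 and a classical marker of the undifferentiated state, had 1, 2 and 3 peaks in H7 replicates 1, 2 and 3 and 0, 1 and 0 in ARPE-19 (exact permutation p = 0.2). The gene lies on chromosome 4 from 188916925 to 188926203. Its H7-only region, from 188953358 to 188953661, was 36.5 to 36.6 kb after the start and had 8, 7 and 13 summit reads. In the gene table TRIML2 is the next gene on that side. At the start itself, H7 replicate 3 had a peak from 188916648 to 188916865 with 11 reads and replicate 2 one from 188916910 to 188917094 with 7. Their summits stand on either side of the start, and the peaks do not overlap. The count of regions called in 2 or 3 H7 libraries therefore leaves them out. The ARPE-19 peak, 27.2 kb before the start, had 4 reads, the fewest that could be called.

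SALL4, a factor of the spalt family, had 1 H7 peak in each library at 3 different places. The gene lies on chromosome 20 from 50400583 to 50419048. H7 replicate 1 had a peak over the start site, from 50419043 to 50419208, with 11 summit reads and an authors' fold of 5.44. Replicate 3 had one in the gene, 2.20 kb after the start, with 10 reads, and replicate 2 one 35.3 kb after the start with 8. The 2 ARPE-19-only regions of this window lay far downstream, 49.9 to 52.1 kb after the start, on the side of ATP9A. The first, from 50366670 to 50367115, had 15, 18 and 14 summit reads in ARPE-19 replicates 1, 2 and 3, and the second, from 50368841 to 50369283, had 10, 11 and 13. The local background there was 2.55 to 3.43 times that of the library. With 2 peaks in each ARPE-19 library and 1 in each H7 library the lines did not overlap (exact permutation p = 0.1, the smallest possible).

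PRDM14, a PR-domain factor of stem cells and primordial germ cells, had 1 weak peak in H7. Its gene lies on chromosome 8 from 70963886 to 70983562. The H7 libraries had 0, 0 and 1 peaks, and the one in replicate 3, within the gene from 70973501 to 70973651, had 7 summit reads and stood at the 9.67th percentile of its list. ARPE-19 had 1, 0 and 2 peaks, all upstream, with 6 to 9 reads (exact permutation p = 0.7).

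The RNA-binding genes had their strongest calls in the epithelial line. LIN28B, which blocks maturation of let-7 microRNAs, lies on chromosome 6 from 105404923 to 105531207, and its window is the longest of the 9 at 226 kb. Its ARPE-19-only region lay inside the gene from 105463086 to 105463830, 58.7 kb after the start. It had 15, 14 and 14 summit reads in ARPE-19 replicates 1, 2 and 3, authors' folds of 8.74 to 9.58 and percentiles of 71.3 to 79.7. H7 had 0, 3 and 0 peaks, all in replicate 2, of which the strongest by -log10 q stood 1.26 kb before the start with 9 reads. ARPE-19 had 2, 2 and 3 peaks (exact permutation p = 0.4).

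L1TD1, a protein derived from a LINE-1 element and abundant in stem cells, had 1, 0 and 0 peaks in H7 and 2 in each ARPE-19 library (exact permutation p = 0.1, the smallest possible). The gene lies on chromosome 1 from 62660474 to 62678001. The ARPE-19-only region lay from 62696460 to 62696805, 36.1 to 36.2 kb after the start on the side of KANK4, with 15, 14 and 10 summit reads. The H7 peak lay within the gene, 3.82 kb after the start, with 8 reads. An ARPE-19 peak of replicate 3 with 8 reads began just after it, at 62664490, and the 2 peaks do not overlap.

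DPPA4 was the one gene with every H7 library above every ARPE-19 library (2 genes without H7 replicate 1 or 3, and 3 without ARPE-19 replicate 2). DPPA4 is a SAP-domain protein of pluripotent cells, with its gene on chromosome 3 from 109044988 to 109056419. H7 replicates 1, 2 and 3 had 2, 4 and 4 peaks and the ARPE-19 libraries had 0, 0 and 0, a difference of 3.33 peaks (exact permutation p = 0.1, the smallest possible). Over the genome, in bins of 111 kb (the median length of a window) with at least 1 peak, 2.15% had every H7 library above every ARPE-19 library, and 43.2% the reverse, which held for 2 of the 9 genes (SALL4 and L1TD1). At least 2 peaks in each H7 library and none in ARPE-19, a criterion chosen after the DPPA4 counts were seen, held for 22 of 22253 bins (0.0989%).

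The peaks of the DPPA4 window fell into 3 places. The strongest, from 109035231 to 109035535, lay 21.0 to 21.1 kb after the start and past the end of the gene. In the gene table DPPA2, the partner gene of DPPA4, is next on that side. Whether the region belongs to DPPA2 or to DPPA4 was not analysed here. The region had 18, 28 and 14 summit reads in H7 replicates 1, 2 and 3, and authors' folds of 8.25, 10.5 and 6.45. Its peaks stood at percentiles 93.4, 99.2 and 77.5 of the lists. Its 28 reads were the most of any peak of either line in the 9 windows. Every H7 library had the peak and no ARPE-19 library did.

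The second place lay upstream, from 109074420 to 109075627, about 18.1 to 19.0 kb before the start. At 1208 bases it was the widest merged region in the 9 windows, but no library had a peak over all of it. H7 replicate 1 had 1 peak of 675 bases with 9 summit reads, from 109074589 to 109075263. Replicate 2 had 2 separate peaks with 10 reads each, and replicate 3 had 2 with 13 and 16. The replicate 1 peak joins them into 1 region, so the width comes from merging. The third place was the start site, from 109056463 to 109056709, with 11 reads in replicate 2 and 8 in replicate 3 and summits 213 and 194 bases before the start. Replicate 1 had no peak there. The nearest ARPE-19 peak to the DPPA4 start was 72.0 kb away. The local background of the DPPA4 peaks was 1.69 to 2.98 times that of the library, against 1.08 to 2.98 over all H7 peaks of the 9 windows.

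**Figure D3:**
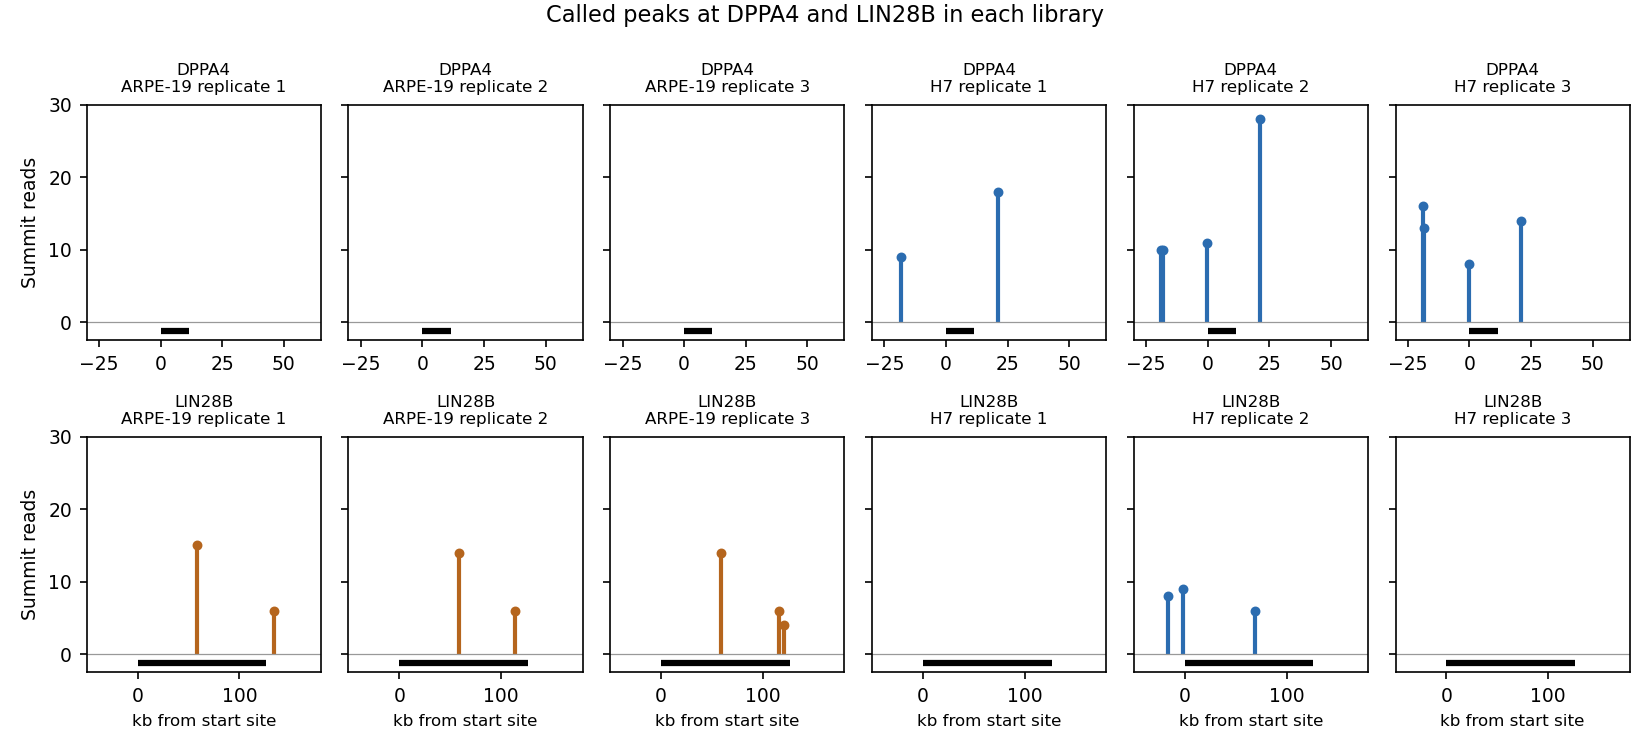
Summit reads of each called peak (y axis) against its distance from the start site in kb (x axis) at DPPA4 (top) and LIN28B (bottom) in the 6 libraries; black bars are gene spans. DPPA4 has peaks of 8 to 28 reads in the 3 H7 libraries and none in ARPE-19, and LIN28B has a peak of 14 to 15 reads at the same place in the 3 ARPE-19 libraries.

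**Figure D4:**
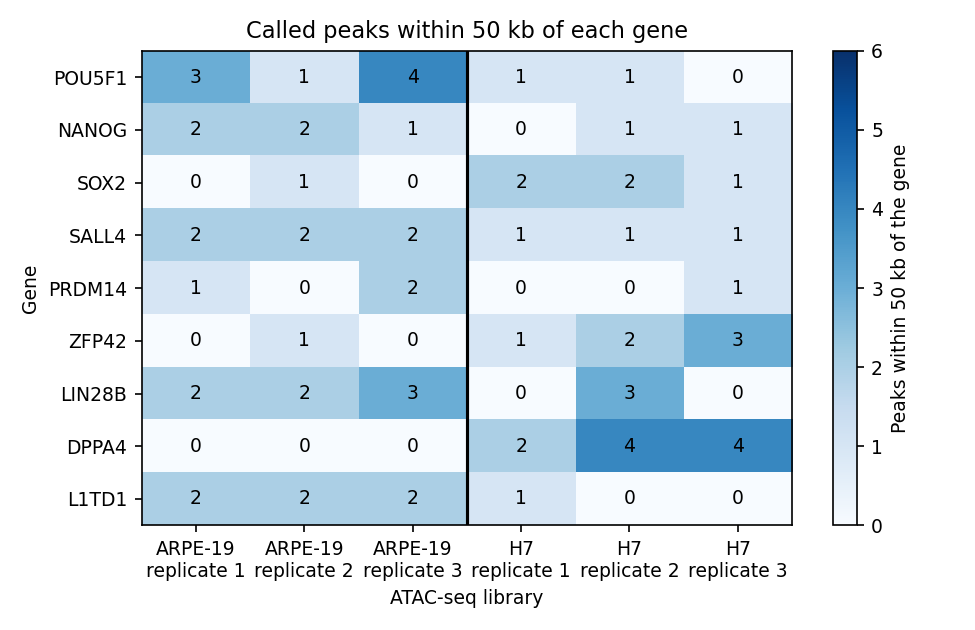
Number of called peaks within 50 kb of each gene (rows) in each library (columns); darker means more peaks. DPPA4 has 2 to 4 peaks in H7 and 0 in ARPE-19, and SALL4 and L1TD1 have 2 in each ARPE-19 library and at most 1 in H7.

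The windows also differed in how strong their peaks were within a list. At DPPA4, H7 percentiles of -log10 q ran from 13.8 to 99.2, and at ZFP42 from 3.91 to 85.0. At the 3 core factors no H7 peak stood above the 61.2nd percentile, which was a SOX2 peak. When each list was shortened to its 8622 peaks of lowest p, the length of the list of H7 replicate 3, 19 of the 33 H7 peaks were left (57.6%, against 68.6% of all H7 peaks) and 2 of the 37 ARPE-19 peaks (5.41%, against 19.4% of all). All 11 peaks of H7 replicate 3 stay by construction, so only H7 replicates 1 and 2 could lose any. Replicate 1 had 3 of 8 window peaks left, where 56.2% of its whole list was kept. Replicate 2 had 5 of 14 left, where 62.9% of its whole list was kept. The 2 ARPE-19 peaks were at SALL4 and LIN28B, both of replicate 2. The DPPA4 region past the end of the gene was kept in H7 replicates 1 and 2, and the start-site peak of DPPA4 in replicate 2. The start-site peak of NANOG in replicate 2 was lost. With a -log10 q of at least 5, 6 H7 peaks (18.2%, against 33.8% of all) and 18 ARPE-19 peaks (48.6%, against 65.7% of all) were left, and no start site was. These shares were not tested.

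**Figure D5:**
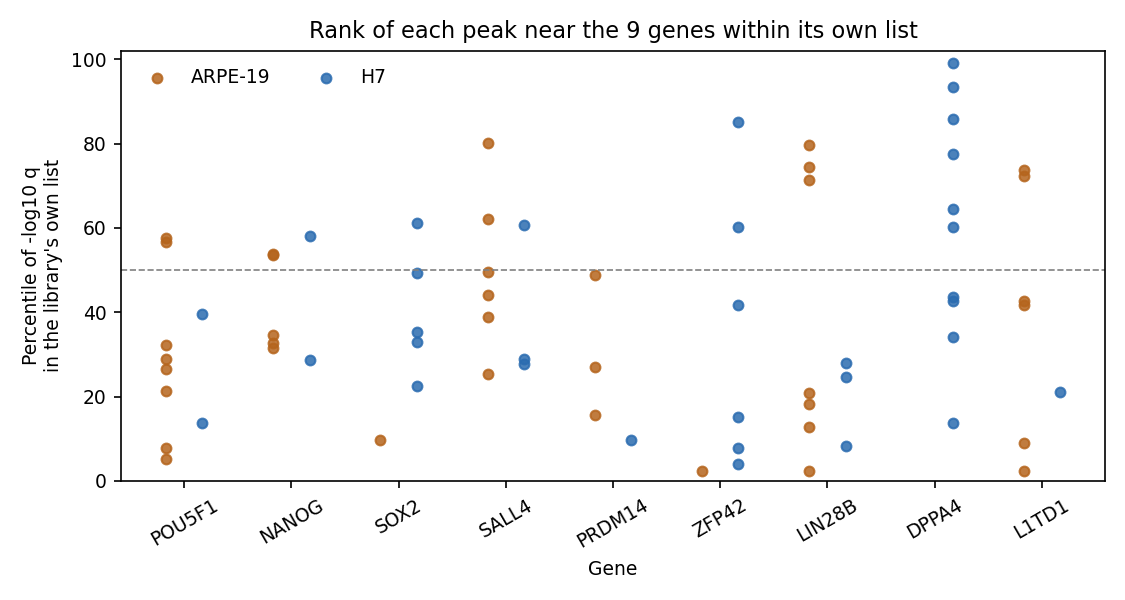
Percentile of -log10 q of each peak within its own library's list (y axis) for the 9 genes (x axis), ARPE-19 at the left and H7 at the right of each gene; the dashed line is the 50th percentile. The DPPA4 peaks of H7 reach 99.2, while the H7 peaks of POU5F1, PRDM14, LIN28B and L1TD1 all stand below 50.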

How the data were processed

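The 6 ATAC-seq libraries had 1 peak list each, called per library and not pooled. Per the submitters' processing notes, MACS2 and bedtools were used on build hg19; versions, the aligner, duplicate handling and read shifting are not given in the sources used here. The deposited score is 10 times the -log10 q. The deposited fold sets summit reads over local background as a ratio, and the deposited -log10 p (with its adjusted form, the -log10 q) tests that excess in 1 library at a time. These are the authors' values per peak. Lists of unequal length limit what their counts can show.

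Gene spans on hg19 were those of the rule. Strand came from the RefSeq promoter table of GRCh38.p14 or, for POU5F1, SALL4 and PRDM14, from general knowledge; neighbouring genes were named from the order of protein-coding genes in that build. Exons, introns and the gene that a region belongs to were not analysed here. Summit reads and background were solved from fold, (reads + 1) / (background + 1), and the Poisson p, to within 0.001 of the -log10 p for at least 99.988% of nuclear peaks of each library and for all 70 window peaks. Genome-wide background was 0.425 to 0.483 reads in ARPE-19 and 0.592 to 0.653 in H7. Peak counts per gene were compared by exact permutation of the 6 libraries (two-sided, 20 splits). All 9 genes were described, with every region called in at least 2 libraries of a line, the strongest H7 peak of the other genes, and start-site peaks. The members, lists and rules were chosen with earlier results of these data known. Only the recovery of summit reads and the merging of peaks into regions were checked on simulated data. The simulated reads were made with the same formula that was then solved, so that check tests the code alone. Work was done in Python 3.11.15 (scipy 1.17.1, numpy 2.4.6, matplotlib 3.10.9, pandas 2.3.3).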

Additional observations from a re-analysis of the deposited data

How the results depend on the processing

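The number of peaks near the 9 genes had no stable direction. Its log2 difference of H7 from ARPE-19, -0.17, became 0.44 with windows of 10 kb, 3.25 with every list shortened to 8622 peaks (equal numbers), -1.58 with a -log10 q of at least 5 and -0.82 with windows of 100 kb. Without DPPA4, an alternative chosen after its counts were seen, it was -0.69. With 1 library left out it was -0.38 to 0.019, above 0 without H7 replicate 1. The log2 ratio of shares of the list, 1.76, was above 0 in every setting run, with 2.39 at 10 kb, 1.07 at 100 kb and 3.25 with equal numbers, and 1.47 to 2.05 with 1 library left out. H7-only regions, 3 in all, numbered 1 at 10 kb, with equal numbers and at a -log10 q of 5 or more. They numbered 2 where a call had to cover 50% of its region and 5 with at least 2 of 3 libraries. With 1 library left out they numbered 3 to 6, the most without H7 replicate 1. ARPE-19-only regions, 5 in all, numbered 1 at 10 kb, 10 at 100 kb, 0 with equal numbers and 3 where a call had to cover 50% of its region, and 5 to 6 with 1 library left out. H7 start sites, 3 in all, numbered 0 in 3 of 3 libraries or at a -log10 q of 5 or more, 1 with equal numbers, and 0 to 3 with 1 library left out, with 0 without H7 replicate 2 or 3; ARPE-19 had 0 in every setting run. Genes with every H7 library above, 1 in all, numbered 2 with equal numbers and 1 to 3 with 1 library left out (3 without ARPE-19 replicate 2, whose list holds the lone SOX2 and ZFP42 peaks of that line). Genes with every H7 library below, 2 in all, numbered 0 at 10 kb and with equal numbers, and 3 at 100 kb. They numbered 4 at a -log10 q of 5 or more, and 2 to 3 with 1 library left out.

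The difference in mean peaks per library turned at NANOG (-1) to 0.33 and at SALL4 (-1) to 0.67, both at 10 kb, and to 0.33 at both with equal numbers. It turned at PRDM14 (-0.67) to 0.33 with equal numbers and at SOX2 (1.33) to -2.67 at 100 kb. Narrower windows and shorter lists hold fewer peaks by construction; beyond that the cause was not tested. DPPA4 was higher in H7 in each of its 11 settings. With the replicate number as a block, 3 genes (SOX2, ZFP42 and DPPA4) were higher in H7 in all 3 same-numbered pairs. Another 2 (SALL4 and L1TD1) were lower in H7 in all 3. Each of these genes had an exact sign-flip p of 0.25, the smallest possible. The pairs share only a number: their deviations over bins correlated at -0.0058, -0.012 and 0.027.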

Other observations

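Promoters of the other genes in the RefSeq table, none of which had a called peak at the start in more than 1 library, differed in the same elements. Those of SOX2 and L1TD1 each had 1 match to the first form of the SOX core, 1 to the GC box and 1 to the CCAAT box. The upstream one of the LIN28B promoters had 1 match to the other form of the SOX core and 2 to the GC box, and the other LIN28B promoter had 1 match to the first form of the SOX core and 1 to the CCAAT box. The joint OCT4 and SOX2 element was found in the NANOG promoter and in none of the other 6 promoters of these genes in the table. The match is to letters alone, and binding was not tested.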
